A study of Homo sapiens with 9 samples.

Results

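The genes described here make cholesterol, control how much of it is made, and move it in, within and out of the cell. They are 31 named genes of the 60609 in the deposited count tables, taken by symbol, and all 31 were found and passed the filter on low counts. By role, 8 encode mevalonate and isoprenoid enzymes, 12 squalene and sterol enzymes, 4 the SREBP control system, 3 uptake control, sterol transfer and storage, and 4 the LXR side. RNA was sequenced, with 3 libraries per genotype, from MCF-10A, an immortal line of human breast epithelium that does not form tumours. The genotypes were a knock-in of the kinase-domain change H1047R in PIK3CA, the gene of the p110-alpha subunit of PI 3-kinase, a knock-in of the helical-domain change E545K, and the parental line (WT). The study set out to compare transcription in isogenic cells with either change.

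Per the labels' protocols, both knock-in lines were kept without epidermal growth factor (EGF, 0 ng/ml) and WT with 20 ng/ml, so culture history cannot be told apart from genotype in either comparison with WT. All groups shared insulin, hydrocortisone and cholera toxin, 5% horse serum during maintenance, and, for the last 24 h, low EGF (0.2 ng/ml) in 1% serum that had been stripped with charcoal, which removes lipophilic molecules. The labels do not say how many clones a knock-in line stands for and do not describe the replicates as separate cultures. The spread behind each p-value is thus that of these libraries and may be technical.

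As background, cholesterol is built from acetyl-CoA through mevalonate, isoprenoids, squalene and lanosterol. The transcription factor SREBP-2, encoded by SREBF2, is held in the endoplasmic reticulum by INSIG proteins and carried to the Golgi by SCAP when membrane sterol is low, where it is cleaved and then raises the transcription of synthesis genes and of INSIG1 itself. Oxysterols, which form when sterol is plentiful, activate the LXR receptors, which raise transcription of the exporters ABCA1 and ABCG1 and of MYLIP, a ubiquitin ligase that lowers lipoprotein receptors.

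Levels are given as CPM, counts scaled to a common library size. Total gene counts were 377093507 to 605972919 in H1047R, 95533991 to 134245702 in E545K and 95091894 to 136132315 in WT. The H1047R libraries stand in a separate table, so table, depth and the H1047R genotype cannot be told apart. The coefficient of variation between libraries over all genes was 0.215 within H1047R, 0.0288 within E545K and 0.0328 within WT. The 8 markers of basal breast epithelium summed to 28100 to 29200 CPM of the unscaled library total in H1047R, 27000 to 27200 in E545K and 30300 to 30600 in WT, most of it KRT5 and KRT17. Of the others, ITGB4 held 1520 to 1690 in H1047R, 2440 to 2460 in E545K and 2620 to 2660 in WT. TP63 held 131 to 139 in H1047R, 165 to 174 in E545K and 190 to 194 in WT. EPCAM held 20.5 to 24.6 in H1047R, 20 to 21.3 in E545K and 35.1 to 35.8 in WT. The remaining markers went in different directions. KRT5 held 15300 to 15800 in H1047R, 13600 to 13700 in E545K and 13600 to 13900 in WT. In the same order, KRT17 held 9600 to 10500, 9260 to 9340 and 12500. CDH1 held 573 to 592, 417 to 428 and 538 to 544. KRT14 held 48.6 to 62.8, 28.5 to 29.8 and 46.4 to 48.6. EGFR held 660 to 762, 1080 to 1090 and 720 to 731. Of 3 adipocyte markers, ADIPOQ was at 0 to 0.0116 in H1047R, 0 to 0.0209 in E545K and 0 to 0.0208 in WT. FABP4 and PLIN1 were higher in H1047R. FABP4 held 0.627 to 1.12 in H1047R, 0.127 to 0.335 in E545K and 0.309 to 0.333 in WT. PLIN1 held 0.488 to 0.589, 0.262 to 0.387 and 0.337 to 0.354 in the same order. All 3 summed to 1.19 to 1.61 in H1047R, 0.477 to 0.743 in E545K and 0.662 to 0.708 in WT. The 3 endothelial markers summed to 0.353 to 0.423 in H1047R, 0.575 to 0.745 in E545K and 0.771 to 1.07 in WT. Among them PECAM1 was higher in H1047R (0.167 to 0.199) than in WT (0.0631 to 0.132). VWF (0.175 to 0.203 against 0.588 to 0.946) and CDH5 (0.0106 to 0.0212 against 0.0312 to 0.0631) were lower. The 2 hepatocyte markers, ALB and APOB, stayed under 1 in every library. The 3 leukocyte markers summed to 2.23 to 2.72 in H1047R, 4.96 to 5.65 in E545K and 4.69 to 5.63 in WT, nearly all of it CD14. Among the 4 fibroblast markers, COL1A1 held 53.4 to 71.4 in H1047R, 61 to 64 in E545K and 46.1 to 47.2 in WT, and the other 3 stayed under 1. The part of these cell types in the results was not tested.

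RNA of the synthesis genes was far lower in H1047R than in either other genotype. From here on, CPM uses a library size scaled by the trimmed mean of M-values (TMM). The 8 mevalonate and isoprenoid genes summed to 429, 331 and 306 CPM in H1047R, 1120, 1130 and 1110 in E545K, and 1190, 1180 and 1170 in WT. The 12 squalene and sterol genes summed to 820, 653 and 618 CPM in H1047R, 1630, 1640 and 1650 in E545K, and 1930, 1940 and 1950 in WT. Every H1047R library lay far below every E545K and WT library in both sums, and E545K lay below WT in both. The 4 LXR-side genes summed to 87.1, 87.6 and 85.2 CPM in H1047R, 64.7, 66.7 and 66.4 in E545K, and 74, 75.4 and 72.1 in WT. Most of that sum was NR1H2, at 59.2 CPM in H1047R, 54 in E545K and 60.5 in WT, and of the 4 genes ABCG1 rose and NR1H3 fell in H1047R against WT, with a median log2 fold change of −0.33. Over all 20 synthesis genes the sum was 1050 ± 172 CPM in H1047R, 2760 ± 7.58 in E545K and 3120 ± 5.35 in WT (SD, n = 3 each). In bulk RNA, fewer cells with a transcript and less of it per cell cannot be told apart.

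**Figure D1:**
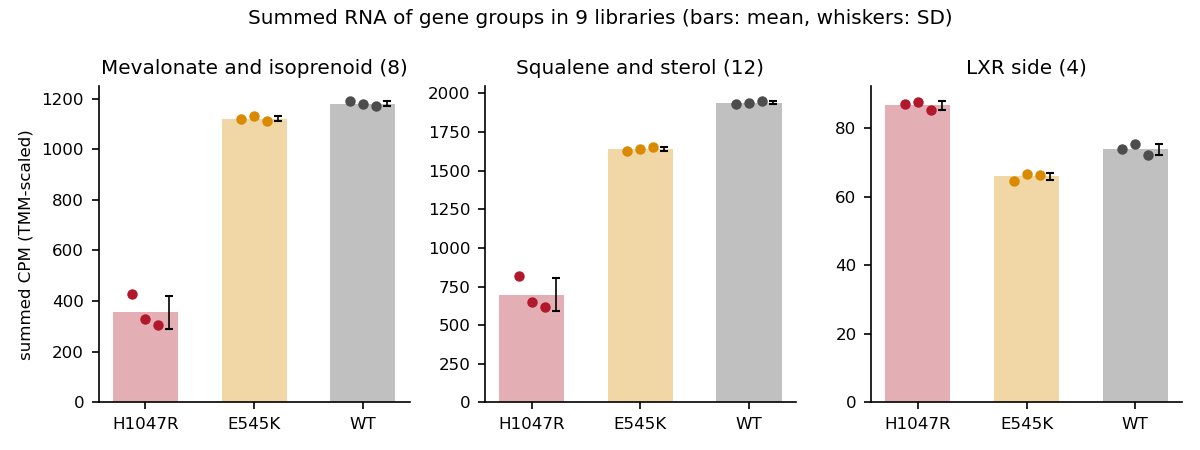
Summed CPM (linear axis) of the mevalonate and isoprenoid genes, the squalene and sterol genes and the LXR-side genes in H1047R, E545K and WT. Points are libraries, bars means and whiskers SD (n = 3 each); the first 2 groups of genes are lowest in H1047R, at means of 356 and 697 CPM, and the LXR-side sum is 86.6 CPM there, of which ABCG1 makes up 22.1 CPM in H1047R, 7.04 CPM in E545K and 5.03 CPM in WT.

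In edgeR's quasi-likelihood test with Benjamini-Hochberg adjustment over 26412 genes, 27 of the 31 genes were called in H1047R against WT (55.5% of all genes), 18 in E545K against WT (36.6%) and 27 in H1047R against E545K (53.2%). Of the 20 synthesis genes, 19 fell in H1047R against WT and 0 rose, beside 28.1% of all genes called lower and 27.4% called higher. The median log2 fold change of the 20 was −1.49, against 0.02 over all genes tested. At least 1.5-fold, 15 of the 20 fell, beside 12.8% of all genes. In H1047R against E545K, where neither line had been kept with EGF, all 20 fell, by log2 fold changes of −2.47 to −0.15, beside 27.3% of all genes called lower, with a median of −1.16 against 0.02. At least 1.5-fold, 16 of them fell, beside 11.7% of all genes. Between E545K and WT, 4 of the 20 rose and 8 fell, beside 17.7% and 18.9% of all genes, with a median of −0.20 against 0.00, and 0 rose or fell by as much as 1.5-fold, beside 7.35% and 5.41% of all genes. The comparisons share libraries and are not independent of each other. With library totals as the only scaling, the median of all genes moved to 0.10 in E545K against WT and −0.12 in H1047R against E545K. The share of calls that were higher was then 66.1% in E545K against WT, compared with 48.3% under TMM, and 33.2% in H1047R against E545K, compared with 48.7%.

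H1047R replicate 1 had the highest level of the 3 H1047R libraries for all 20 synthesis genes. It was the highest for 27 of all 31 genes. The median coefficient of variation of the 20 genes was 16% in H1047R, 1.47% in E545K and 1.67% in WT. Without that library the 27 genes called in H1047R against WT were all still called, with HMGCS1 at −3.21, INSIG1 at −3.19 and ABCG1 at 2.19 on the log2 scale.

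**Figure D2:**
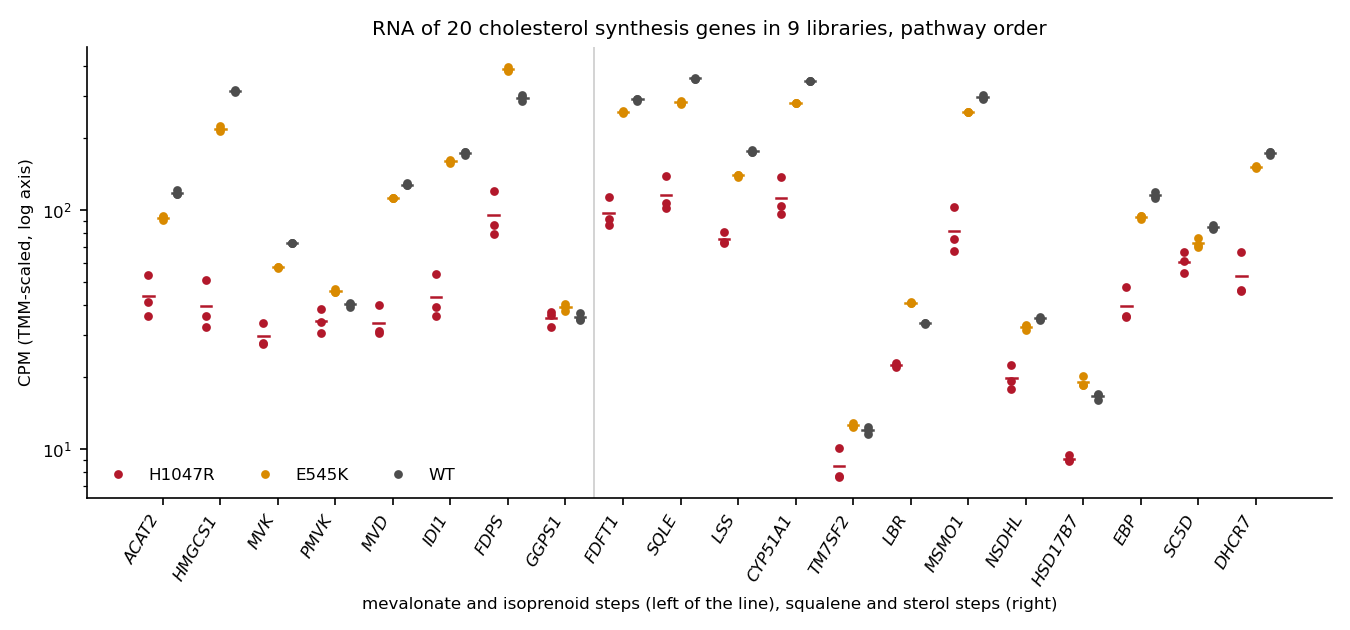
CPM on a log axis of the 20 synthesis genes in pathway order, with H1047R, E545K and WT side by side for each gene (points are libraries, dashes means, n = 3 each). H1047R lies lowest for all of them except GGPS1, where H1047R and WT overlap.

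The promoter windows of 4 genes are shown because SREBP and its partner NF-Y are known to bind upstream of synthesis genes. Of the 20 synthesis genes, 19 fell in H1047R against WT, beside 28.1% of all genes called lower. A part of either factor in these falls was not tested. The genes shown are SREBF2, the only one of those searched with the sterol regulatory element type motif TCACNCCAC, the pair with the steepest falls in H1047R (HMGCS1 and INSIG1), and MYLIP, the steepest rise with a window. The last 3 were chosen after their values were seen. Each runs 5′ to 3′ from 250 bases before to 50 after the RefSeq start (GRCh38.p14), with matches to TCACNCCAC and to CCAAT, the NF-Y box, in either strand in capitals. The windows are SREBF2 (chr22:41832855-41833154, plus strand), HMGCS1 (chr5:43313363-43313662, minus strand), INSIG1 (chr7:155297628-155297927, plus strand) and MYLIP (chr6:16128836-16129135, plus strand).
SREBF2: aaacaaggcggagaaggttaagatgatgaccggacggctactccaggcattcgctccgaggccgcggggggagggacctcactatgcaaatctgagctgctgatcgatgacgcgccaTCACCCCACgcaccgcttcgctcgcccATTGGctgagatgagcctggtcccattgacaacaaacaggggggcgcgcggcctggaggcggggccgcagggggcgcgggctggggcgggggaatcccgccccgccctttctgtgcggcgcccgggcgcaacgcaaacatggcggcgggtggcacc
HMGCS1: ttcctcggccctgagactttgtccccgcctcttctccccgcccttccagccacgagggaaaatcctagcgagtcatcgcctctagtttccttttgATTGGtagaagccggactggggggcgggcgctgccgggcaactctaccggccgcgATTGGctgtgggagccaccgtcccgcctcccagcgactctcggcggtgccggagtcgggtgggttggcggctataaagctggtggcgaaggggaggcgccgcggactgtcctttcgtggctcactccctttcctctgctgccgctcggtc
INSIG1: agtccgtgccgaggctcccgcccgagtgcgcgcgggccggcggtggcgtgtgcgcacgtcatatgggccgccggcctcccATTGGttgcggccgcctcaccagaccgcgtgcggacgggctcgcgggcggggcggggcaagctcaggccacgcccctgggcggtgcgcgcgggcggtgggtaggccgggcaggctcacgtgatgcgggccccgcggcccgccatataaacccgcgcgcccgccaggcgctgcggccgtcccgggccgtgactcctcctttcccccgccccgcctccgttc
MYLIP: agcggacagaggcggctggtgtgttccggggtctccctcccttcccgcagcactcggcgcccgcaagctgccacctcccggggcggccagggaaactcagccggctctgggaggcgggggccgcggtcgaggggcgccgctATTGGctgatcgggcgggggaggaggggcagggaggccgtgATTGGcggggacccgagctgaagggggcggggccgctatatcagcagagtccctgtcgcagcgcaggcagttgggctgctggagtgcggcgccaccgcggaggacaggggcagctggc
In SREBF2 the TCACNCCAC match covers bases 118 to 126 of the window, its first base 133 bases before the start, and 18 bases separate it from the CCAAT box, which reads ATTGG on this strand. Of the 31 genes, 27 had a window, and where a gene had several the one nearest the counted gene's outer start was read. TCACNCCAC was in 1 of the 27 windows (3.7%) and in 0 of 17 windows of synthesis genes, against 1.13% of 35116 windows of the same length. CCAAT was in 17 of the 27 (63%) and in 12 of 17 windows of synthesis genes (70.6%), against 34.6% of all windows. All windows were kept for other genes, with no choice of start and no filter on expression, so the shares are not matched. A chosen window can also lie inside the gene, as for NR1H2 (chr19:50376207-50376506, counted gene from 50329653). MVK and NSDHL held 5 CCAAT matches each, MSMO1 4, and FDPS, MVD and EBP 3 each. Among the synthesis genes, the windows of PMVK, GGPS1, LBR, CYP51A1 and DHCR7 held none. Neither did those of SCAP, INSIG2, NR1H2, NR1H3 and ABCA1. A match is a description of letters, not a shown site, and degenerate forms of the sterol element were not searched.

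Among the mevalonate enzymes, the steepest fall was in HMGCS1 (ENSG00000112972.15, chr5:43287470-43313512, minus strand, hg38), the cytosolic synthase that makes HMG-CoA. It had 50.8, 35.9 and 32.5 CPM in H1047R, 225, 219 and 215 CPM in E545K and 318, 316 and 314 CPM in WT. The 3 genotypes did not overlap, with H1047R several-fold below both others. Its log2 fold change was −2.99 ± 0.12 in H1047R against WT (adjusted p = 2.44e-11) and −2.47 ± 0.12 against E545K (adjusted p = 2.45e-10). E545K was also below WT, and HMGCS1 fell there by 0.52 ± 0.11 (adjusted p = 0.00168). Another gene on the opposite strand covers 37.7% of its exon bases, and counting without strand cannot separate the reads. Other genes also cover 22.2% of the exon bases of ACAT2, 14.8% of IDI1 and 36.4% of EBP, all described next.

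ACAT2, the cytosolic thiolase that makes acetoacetyl-CoA at the start of the route, had 53.6, 41.4 and 36.1 CPM in H1047R, 94.3, 93.4 and 91 CPM in E545K and 121, 117 and 117 CPM in WT. MVK, mevalonate kinase, had 33.8, 27.4 and 27.7 CPM in H1047R, 57.8, 58 and 57.5 CPM in E545K and 72.8, 73.1 and 72.8 CPM in WT. Both stood in the order H1047R, E545K, WT with no overlap, and both fell in H1047R against WT (−1.44 ± 0.10 and −1.30 ± 0.06) and in E545K against WT (−0.35 ± 0.10 and −0.34 ± 0.06). MVD, the decarboxylase that forms isopentenyl diphosphate, had 39.9, 30.5 and 31.1 CPM in H1047R, 112, 113 and 112 CPM in E545K and 130, 127 and 127 CPM in WT. IDI1, the isomerase of that product, had 54.2, 39.4 and 36 CPM in H1047R, 162, 161 and 158 CPM in E545K and 176, 170 and 175 CPM in WT. H1047R lay below both other genotypes for MVD and IDI1, at −1.92 ± 0.08 and −2.01 ± 0.11 against WT. In E545K against WT, MVD (−0.19 ± 0.08, adjusted p = 0.0607) and IDI1 (−0.12 ± 0.10, adjusted p = 0.412) were not called, although their libraries did not overlap, as for 27.5% of all genes in that direction.

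FDPS, which makes farnesyl diphosphate, went opposite ways in the knock-in lines. It had 120, 86.5 and 79.8 CPM in H1047R, 384, 396 and 386 CPM in E545K and 298, 304 and 287 CPM in WT. E545K stood highest and H1047R lowest, with no overlap. FDPS fell by 1.63 ± 0.11 in H1047R against WT (adjusted p = 5.46e-09) and rose in E545K against WT (0.39 ± 0.10, adjusted p = 0.0081), and the direct difference of H1047R against E545K was −2.03 ± 0.11 (adjusted p = 8.43e-10). An antisense gene covers 18.6% of its exon bases.

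The remaining pair of this branch moved little. PMVK, phosphomevalonate kinase, had 38.7, 33.9 and 30.7 CPM in H1047R, 45.5, 45.3 and 46.6 CPM in E545K and 40.6, 40.9 and 39.4 CPM in WT. It fell in H1047R against WT (−0.23 ± 0.06, adjusted p = 0.00732) and was higher in E545K (0.18 ± 0.07, adjusted p = 0.0397). That rise was lost without any single WT or E545K library (log2 fold change 0.17 to 0.19, lowest adjusted p = 0.0907) or H1047R replicate 2 (adjusted p = 0.0559). The rise held without H1047R replicate 1 (0.18, adjusted p = 0.00119) and with only the compared groups in the fit. GGPS1, which makes geranylgeranyl diphosphate for protein prenylation and so stands off the sterol route, had 37.6, 36.3 and 32.5 CPM in H1047R, 37.9, 40.5 and 39.4 CPM in E545K and 34.6, 37.1 and 34.9 CPM in WT. H1047R and WT overlapped, with a log2 fold change of 0.00 ± 0.05 (adjusted p = 0.986). Its call in H1047R against E545K (−0.15 ± 0.05, adjusted p = 0.0354) was lost without WT replicate 1 (adjusted p = 0.0501), 2 (0.0511) or 3 (0.0575), E545K replicate 2 (0.151) or 3 (0.103), or H1047R replicate 2 (0.0509) or 3 (0.113). Other genes cover 41% of its exon bases.

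All 12 squalene and sterol genes fell in H1047R, against WT as well as against E545K. FDFT1, squalene synthase and the first step committed to sterol, had 114, 92 and 86.3 CPM in H1047R, 257, 256 and 261 CPM in E545K and 288, 293 and 292 CPM in WT. SQLE, the epoxidase that follows, had 139, 107 and 102 CPM in H1047R, 279, 282 and 287 CPM in E545K and 357, 356 and 356 CPM in WT. LSS, which closes the rings to lanosterol, had 80.8, 72.8 and 73.3 CPM in H1047R, 138, 141 and 141 CPM in E545K and 179, 175 and 176 CPM in WT. For these 3 genes all H1047R libraries lay below all others. Log2 fold changes in H1047R against WT were −1.58 ± 0.08 for FDFT1, −1.62 ± 0.08 for SQLE and −1.23 ± 0.04 for LSS (adjusted p = 1.68e-10, 4.14e-10 and 7.3e-12). Relative to WT, E545K had lower SQLE (−0.34 ± 0.08) and LSS (−0.34 ± 0.04), with adjusted p = 0.00472 and 2.16e-05, and FDFT1 was at −0.17 ± 0.07 (adjusted p = 0.083).

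CYP51A1, the lanosterol demethylase, had 138, 104 and 96.7 CPM in H1047R, 281, 280 and 282 CPM in E545K and 346, 346 and 349 CPM in WT. MSMO1, which oxidizes the methyl groups at C4, had 103, 76 and 67.3 CPM in H1047R, 257, 258 and 259 CPM in E545K and 293, 296 and 304 CPM in WT. These were the most abundant sterol transcripts per length in WT and lay lowest in H1047R, at −1.62 ± 0.09 and −1.86 ± 0.11 against WT (adjusted p = 1.21e-09 and 1.22e-09). CYP51A1 shares 84.5% of its exon bases with other genes, mostly a same-strand gene whose exons cover it, so its reads were also counted there. The fall of CYP51A1 in E545K against WT (−0.30 ± 0.09, adjusted p = 0.0165) did not pass with E545K replicate 1 (adjusted p = 0.0505), E545K replicate 2 (0.0512) or WT replicate 3 (0.053) left out. It passed in E545K against WT without H1047R replicate 1 (−0.30, adjusted p = 1.27e-07) and with only the compared groups in the fit. MSMO1 was at −0.21 ± 0.10 there (adjusted p = 0.136).

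NSDHL, the C4 decarboxylase, had 22.5, 19.3 and 17.8 CPM in H1047R, 32.8, 33 and 31.5 CPM in E545K and 34.7, 35.8 and 35.1 CPM in WT. HSD17B7, the ketoreductase that completes C4 demethylation, had 9.44, 9.02 and 8.88 CPM in H1047R, 18.6, 20.2 and 18.5 CPM in E545K and 16.8, 16 and 17 CPM in WT. Both lay lowest in H1047R, at −0.82 ± 0.07 and −0.87 ± 0.05 against WT. NSDHL was at −0.12 ± 0.07 in E545K against WT (adjusted p = 0.202). HSD17B7 rose in E545K against WT (0.20 ± 0.06, adjusted p = 0.0096), a call that did not hold without WT replicate 2 (0.17, adjusted p = 0.0595) or without E545K replicate 2 (0.15, adjusted p = 0.0744). The call held without H1047R replicate 1 (0.20, adjusted p = 0.00316) and with only the compared groups in the fit.

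EBP, the isomerase that shifts the ring double bond, had 47.6, 35.8 and 35.9 CPM in H1047R, 92.2, 94.6 and 94.5 CPM in E545K and 113, 119 and 115 CPM in WT. DHCR7, the last reductase on the way to cholesterol, had 67.1, 46 and 46.5 CPM in H1047R, 150, 151 and 153 CPM in E545K and 175, 175 and 171 CPM in WT. H1047R did not overlap with either other genotype for these genes, and their log2 fold changes against WT were −1.54 ± 0.08 and −1.71 ± 0.11. SC5D, the desaturase between them, had 66.6, 61.2 and 54.4 CPM in H1047R, 76.2, 71.2 and 70.2 CPM in E545K and 83.6, 84.4 and 86.3 CPM in WT and fell less (−0.48 ± 0.06 in H1047R against WT, adjusted p = 7.36e-06). Of this trio, E545K had lower EBP (−0.30 ± 0.08, adjusted p = 0.0104) and SC5D (−0.22 ± 0.06, adjusted p = 0.0093) than WT, and SC5D no longer passed when E545K replicate 3 was left out (−0.20, adjusted p = 0.0524). SC5D passed in E545K against WT without H1047R replicate 1 (−0.22, adjusted p = 3.18e-04) and with only the compared groups in the fit. DHCR7 was at −0.20 ± 0.10 there (adjusted p = 0.148).

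TM7SF2 and LBR both encode sterol C14 reductases, LBR being also the lamin B receptor of the inner nuclear membrane. TM7SF2 had 10.1, 7.6 and 7.7 CPM in H1047R, 12.5, 12.9 and 12.4 CPM in E545K and 11.6, 12 and 12.3 CPM in WT. LBR had 22.9, 22.5 and 22.1 CPM in H1047R, 41.1, 40.9 and 41 CPM in E545K and 33.3, 33.8 and 33.8 CPM in WT. Both were lowest in H1047R (−0.50 ± 0.09 and −0.58 ± 0.04 against WT), and LBR rose in E545K against WT (0.29 ± 0.04, adjusted p = 4e-05) whereas TM7SF2 was at 0.08 ± 0.09 (adjusted p = 0.564). In H1047R against E545K the log2 fold change was −0.58 ± 0.09 for TM7SF2 and −0.87 ± 0.04 for LBR.

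**Figure D3:**
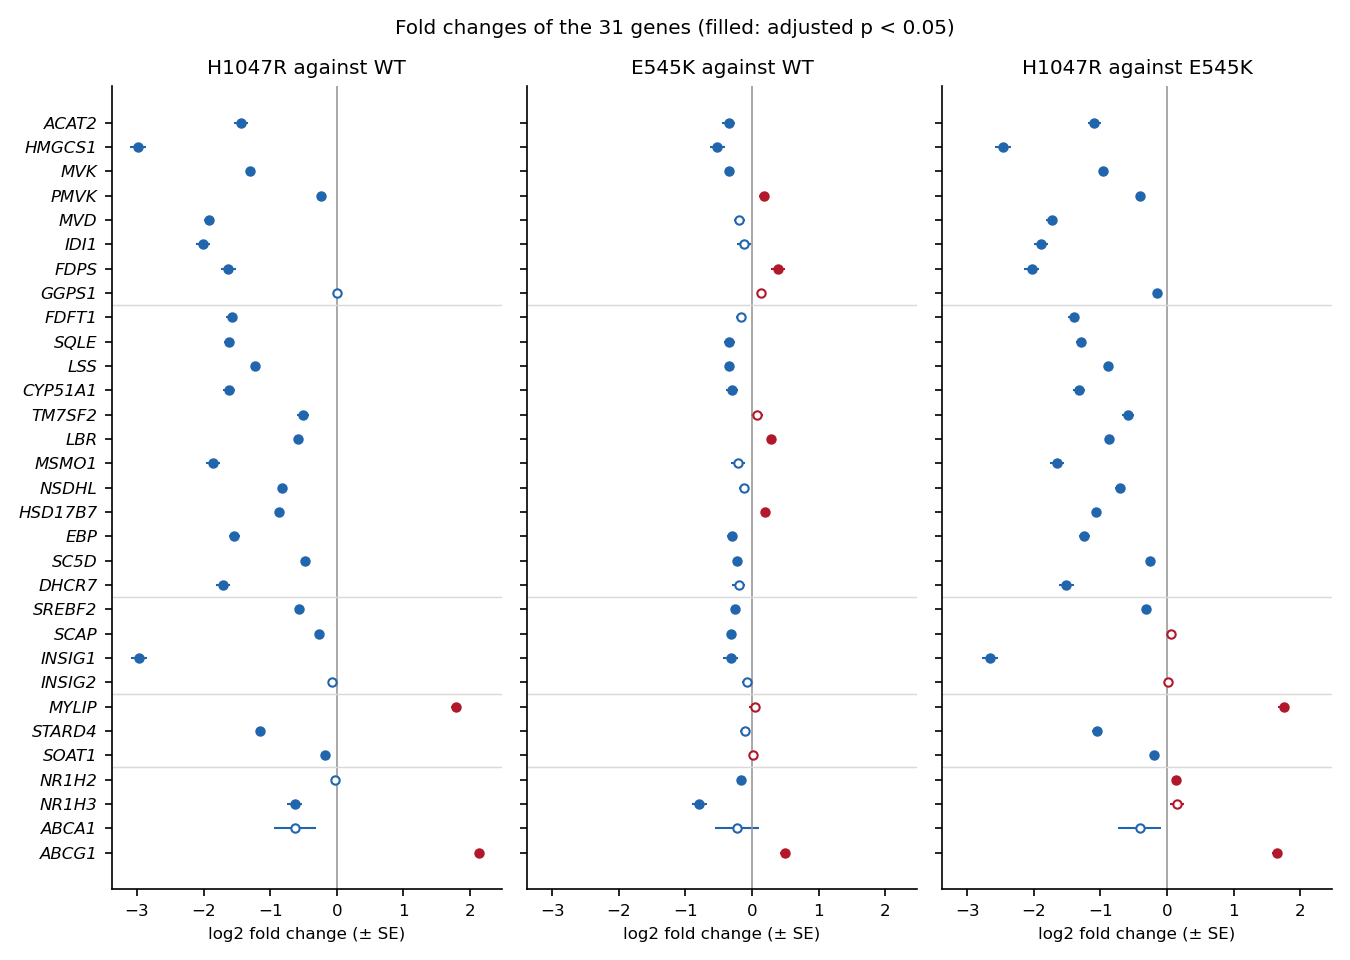
Log2 fold changes with approximate SE of the 31 genes in H1047R against WT, E545K against WT and H1047R against E545K, in the order of roles used in the text. Filled points passed the adjusted p of 0.05, red is higher and blue lower; the H1047R panels reach −2.99 for HMGCS1 and 2.14 for ABCG1 against WT, and the E545K panel stays between −0.79 and 0.49.

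Levels per kilobase of exon allow a rough comparison between genes. The length used joins all annotated exons of a gene, not those of the transcripts present. Reads on exons shared with other genes were counted for each gene, and CYP51A1 shares 84.5% of its exon bases. In WT the highest were MSMO1 at 104 ± 1.91 CPM per kb, CYP51A1 at 98.3 ± 0.56, SQLE at 82.8 ± 0.126 and FDPS at 79.7 ± 2.28 (SD, n = 3), SQLE and FDPS lying apart by little more than the SD of FDPS. In E545K, FDPS came first at 105 ± 1.74 CPM per kb, ahead of MSMO1 at 90.3 ± 0.34. In H1047R the order was different, with PMVK at 34.3 ± 4.02 CPM per kb, SREBF2 at 33.8 ± 2.54, CYP51A1 at 31.9 ± 6.21 and MSMO1 at 28.8 ± 6.45, which do not differ beyond their spread. HMGCS1 stood at 6 ± 1.47 CPM per kb in H1047R, 33.2 ± 0.807 in E545K and 47.7 ± 0.306 in WT. ABCA1 was the lowest of the 31 in every genotype, at 0.0188 ± 0.0023, 0.0249 ± 0.00474 and 0.0293 ± 0.00556 CPM per kb in H1047R, E545K and WT.

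Of the SREBP control genes, 3 of 4 fell in H1047R against WT, beside 28.1% of all genes, and 1 of them at least 1.5-fold, beside 12.8%. That was INSIG1 (ENSG00000186480.13, chr7:155297776-155310235, plus strand, hg38), the retention protein that is itself an SREBP target. INSIG1 had 18.8, 12.7 and 12.3 CPM in H1047R, 92.4, 90.5 and 92.5 CPM in E545K and 113, 113 and 117 CPM in WT. H1047R stood several-fold below both other genotypes, with log2 fold changes of −2.97 ± 0.12 against WT (adjusted p = 2.5e-11) and −2.66 ± 0.12 against E545K (adjusted p = 1.2e-10), close in size to those of HMGCS1. Its fall in E545K against WT (−0.32 ± 0.11, adjusted p = 0.0373) was lost without any single WT or E545K library (log2 fold change −0.33 to −0.30, adjusted p = 0.0757 to 0.109). The fall held without H1047R replicate 1 (−0.31, adjusted p = 1.89e-07) and with only the compared groups in the fit. Every E545K library lay below every WT library for INSIG1. INSIG2, the related retention protein that is not a strong SREBP target, had 11.8, 11.1 and 10.4 CPM in H1047R, 10.5, 10.8 and 11.9 CPM in E545K and 12.2, 11.4 and 11.4 CPM in WT. Its libraries overlapped in every comparison, with log2 fold changes of −0.07 ± 0.06, −0.08 ± 0.07 and 0.01 ± 0.06 in H1047R against WT, E545K against WT and H1047R against E545K (adjusted p = 0.374, 0.397 and 0.927).

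SREBF2 (ENSG00000198911.12, chr22:41833079-41907307, plus strand, hg38), whose window above holds the sterol element type motif, had 277, 246 and 243 CPM in H1047R, 313, 322 and 318 CPM in E545K and 375, 379 and 376 CPM in WT. The genotypes did not overlap, and SREBF2 fell in H1047R against WT (−0.56 ± 0.05, adjusted p = 1.04e-07), in E545K against WT (−0.25 ± 0.05, adjusted p = 8.14e-04) and in H1047R against E545K (−0.31 ± 0.05, adjusted p = 5.38e-05). SCAP, the escort of SREBP to the Golgi, had 114, 119 and 125 CPM in H1047R, 113, 112 and 118 CPM in E545K and 146, 144 and 139 CPM in WT. WT stood highest, and both knock-in lines were lower, at −0.26 ± 0.04 and −0.32 ± 0.04 in H1047R and E545K against WT (adjusted p = 9.62e-05 and 2.71e-05). H1047R and E545K overlapped for SCAP (0.06 ± 0.04, adjusted p = 0.234). The difference was called without H1047R replicate 1 (0.09, adjusted p = 0.0372) and with protein-coding genes only (0.13, adjusted p = 0.0255).

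Genes of uptake, transfer and storage moved in different directions. MYLIP (ENSG00000007944.15, chr6:16129086-16148248, plus strand, hg38) encodes the ligase that marks lipoprotein receptors for degradation and is an LXR target. It had 17.9, 20.4 and 18.6 CPM in H1047R, 5.75, 5.17 and 5.97 CPM in E545K and 5.54, 5.9 and 4.98 CPM in WT. Every H1047R library stood above every other library, while E545K and WT overlapped. MYLIP rose in H1047R against WT (1.79 ± 0.08, adjusted p = 5.96e-11) and against E545K (1.75 ± 0.08, adjusted p = 1.18e-10), and was at 0.04 ± 0.08 in E545K against WT (adjusted p = 0.755). STARD4, a soluble carrier of sterol between membranes, had 26.8, 22.6 and 21.1 CPM in H1047R, 49.2, 46.9 and 49.4 CPM in E545K and 50.5, 52 and 54.4 CPM in WT. It was lowest in H1047R (−1.15 ± 0.07 against WT, adjusted p = 2.19e-09), like the synthesis genes. SOAT1, which esterifies cholesterol for storage, had 59.6, 56.6 and 52.2 CPM in H1047R, 65.6, 62.7 and 63.4 CPM in E545K and 62.4, 63.4 and 63.9 CPM in WT, and its fall in H1047R against WT was small (−0.17 ± 0.05, adjusted p = 0.00629). E545K differed from WT by −0.11 ± 0.07 for STARD4 and 0.02 ± 0.05 for SOAT1 (adjusted p = 0.26 and 0.839).

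On the LXR side, ABCG1 (ENSG00000160179.18, chr21:42199689-42297244, plus strand, hg38), an exporter of cholesterol to lipoprotein, rose in both knock-in lines. It had 20.5, 23.7 and 22 CPM in H1047R, 6.84, 7 and 7.28 CPM in E545K and 4.81, 5.25 and 5.03 CPM in WT. The genotypes did not overlap, with H1047R several-fold above the others. ABCG1 rose in H1047R against WT (2.14 ± 0.07, adjusted p = 1.97e-12), in E545K against WT (0.49 ± 0.07, adjusted p = 6.7e-05) and in H1047R against E545K (1.65 ± 0.07, adjusted p = 3.9e-11). The other exporter, ABCA1, had the lowest counts of the 31 genes and did not pass in any comparison. It had 0.201, 0.241 and 0.192 CPM in H1047R, 0.308, 0.315 and 0.219 CPM in E545K and 0.29, 0.402 and 0.297 CPM in WT, where 3 counts would be 0.00495 to 0.00796 CPM of the unscaled library total in H1047R, 0.0223 to 0.0314 in E545K and 0.022 to 0.0315 in WT. Its log2 fold changes were −0.63 ± 0.32, −0.22 ± 0.33 and −0.41 ± 0.32 in H1047R against WT, E545K against WT and H1047R against E545K (adjusted p = 0.106, 0.656 and 0.296).

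Neither LXR receptor gene rose in a comparison with WT. NR1H3, which encodes LXR-alpha, had 5.87, 4.53 and 5.15 CPM in H1047R, 4.2, 4.97 and 4.84 CPM in E545K and 8.84, 8.29 and 6.93 CPM in WT. WT stood above both knock-in lines, and NR1H3 fell in H1047R against WT (−0.63 ± 0.11, adjusted p = 1.47e-04) and in E545K against WT (−0.79 ± 0.11, adjusted p = 6.21e-05), the one change of at least 1.5-fold among the 31 genes in E545K against WT. NR1H2, which encodes LXR-beta, had 60.6, 59.1 and 57.8 CPM in H1047R, 53.3, 54.4 and 54.1 CPM in E545K and 60.1, 61.4 and 59.9 CPM in WT. It was at −0.03 ± 0.04 in H1047R against WT (adjusted p = 0.51), fell in E545K against WT (−0.16 ± 0.04, adjusted p = 0.00306) and was higher in H1047R than in E545K (0.13 ± 0.04, adjusted p = 0.00752, or 0.00 with library totals as the only scaling). The gene NAPSA on the opposite strand covers 22.1% of its exon bases.

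**Figure D4:**
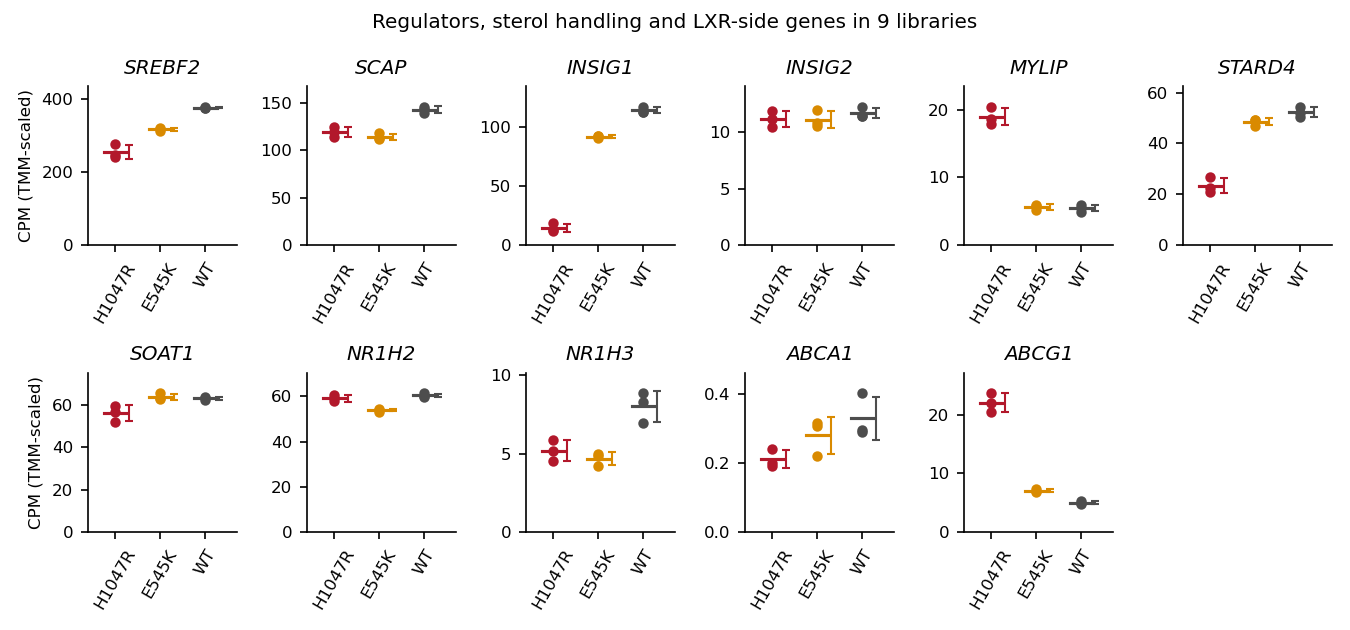
CPM (linear axes from 0) of the SREBP control, uptake, transfer, storage and LXR-side genes in H1047R, E545K and WT; points are libraries, dashes means and whiskers SD (n = 3 each). INSIG1 and STARD4 are lowest and MYLIP and ABCG1 highest in H1047R, at means of 14.6, 23.5, 19 and 22.1 CPM.

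Over all 31 genes, 2 rose and 25 fell in H1047R against WT, beside 27.4% and 28.1% of all genes. In H1047R against E545K, 3 rose and 24 fell, beside 25.9% and 27.3%. Against WT, E545K had 5 rises and 13 falls, beside 17.7% and 18.9%, so the rises were close to the share among all genes. The 2 rises in H1047R against WT were ABCG1 and MYLIP, and in H1047R against E545K NR1H2 joined them. All 3 libraries of H1047R lay below all 3 of WT for 26 of the 31 genes and above them for 2, beside 30.3% and 29.8% of all genes. Against E545K these counts were 24 and 3, beside 30.1% and 28.7%. E545K lay below WT for 20 and above it for 7, beside 27.5% and 26.7%. The gene that did not overlap in H1047R against WT and was not called was ABCA1. For 14 of the 20 synthesis genes the means stood in the order H1047R below E545K below WT, and for 5 in the order H1047R below WT below E545K. For E545K against WT, the fit without H1047R replicate 1, a library of neither group, gave 20 lower and 6 higher calls among the 31 genes. The number of genes tested was then 26752, and 48.8% of the calls over all genes were higher. Calls over all genes were then also more than the 9663 (36.6%) of the fit of all 9 libraries, and a larger share of the genes tested. The added calls are thus not read as particular to these genes. The cause of the added calls was not tested. MVD (−0.19), IDI1 (−0.12), FDFT1 (−0.17), MSMO1 (−0.21), NSDHL (−0.12), DHCR7 (−0.20) and STARD4 (−0.11) were then called lower, and GGPS1 (0.15) higher. MVD, GGPS1, FDFT1 and MSMO1 were also called without H1047R replicate 3, and MVD without H1047R replicate 2. Higher calls numbered 3 without WT replicate 2 and 3 without E545K replicate 2, where calls over all genes were also fewer than with all 9 libraries.

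Another 37 genes of sterol and isoprenoid metabolism, of which 35 passed the low-count filter, had medians nearer 0 than the synthesis genes did. In H1047R against WT, 8 of them rose and 17 fell, beside 27.4% and 28.1% of all genes, with a median log2 fold change of −0.13, and at least 1.5-fold 1 rose and 5 fell, beside 15% and 12.8% of all genes. In E545K against WT, 10 rose and 10 fell, beside 17.7% and 18.9% of all genes, with a median of 0.00, and at least 1.5-fold 2 rose and 0 fell, beside 7.35% and 5.41%. Of the 9 genes of SREBP processing and sterol control in the endoplasmic reticulum, 1 rose and 5 fell in H1047R against WT, beside 27.4% and 28.1% of all genes, all by less than 1.5-fold. SREBF1, the sister gene of SREBF2, was at 155, 131 and 136 CPM in H1047R, 161, 164 and 168 CPM in E545K and 170, 172 and 173 CPM in WT, and fell in H1047R against WT (−0.29 ± 0.05, adjusted p = 2.69e-04).

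The steepest change among them was in VLDLR, the very-low-density lipoprotein receptor and a target of the MYLIP ligase. It had 10.9, 11.7 and 11.6 CPM in H1047R, 3.18, 3.16 and 2.83 CPM in E545K and 1.74, 1.52 and 1.45 CPM in WT. The genotypes did not overlap, and VLDLR rose in H1047R against WT (2.85 ± 0.09, adjusted p = 1.74e-12) and in E545K against WT (0.95 ± 0.09, adjusted p = 1.43e-06). LRP8, a related receptor that the same ligase acts on, went the other way in H1047R, with 10.7, 7.32 and 8.07 CPM in H1047R, 22.5, 22 and 21.4 CPM in E545K and 15.9, 15.4 and 15.7 CPM in WT. It fell in H1047R against WT (−0.86 ± 0.10, adjusted p = 4.11e-06) and rose in E545K against WT (0.49 ± 0.10, adjusted p = 0.00155). Of 14 genes of lipoprotein uptake and sterol traffic, 2 rose and 9 fell in H1047R against WT, beside 27.4% and 28.1% of all genes. The falls included TMEM97 (−0.95 ± 0.08), which binds the transporter NPC1, and the sterol carrier GRAMD1A (−0.84 ± 0.04).

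Of 8 genes of the isoprenoid branches that leave the pathway, 4 rose and 3 fell in H1047R against WT, beside 27.4% and 28.1% of all genes. The subunits FNTB of protein farnesyltransferase (0.46 ± 0.05) and PGGT1B of the enzyme that adds geranylgeranyl groups to proteins (0.45 ± 0.04) rose. The falls included COQ2 (−0.59 ± 0.07) and PDSS1 (−0.53 ± 0.08), which act in ubiquinone synthesis. Other genes cover 49.3% of the exon bases of FNTB, mostly a read-through gene. In E545K, the sterol 27-hydroxylase CYP27A1 had 0.862, 0.962 and 0.917 CPM, against 0.312, 0.211 and 0.329 CPM in WT (1.68 ± 0.26, adjusted p = 1.39e-04), and RXRA, the partner of LXR, fell (−0.54 ± 0.04, adjusted p = 3.96e-08). Also in E545K against WT, GRAMD1A (−0.46 ± 0.04) and GRAMD1C (−0.40 ± 0.07) fell. CH25H, which makes an oxysterol, and CYP7B1, which metabolizes oxysterols, did not pass the filter, with at most 0.0104 and 0 CPM in H1047R, 0.037 and 0.0925 CPM in E545K and 0 and 0.0423 CPM in WT. In H1047R against E545K, GRAMD1C (0.46 ± 0.07) and RXRA (0.64 ± 0.04) rose beside VLDLR (1.89 ± 0.08), while CYP27A1 (−1.59 ± 0.25), LRP8 (−1.34 ± 0.10) and GRAMD1B (−0.95 ± 0.22) fell.

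**Figure D5:**
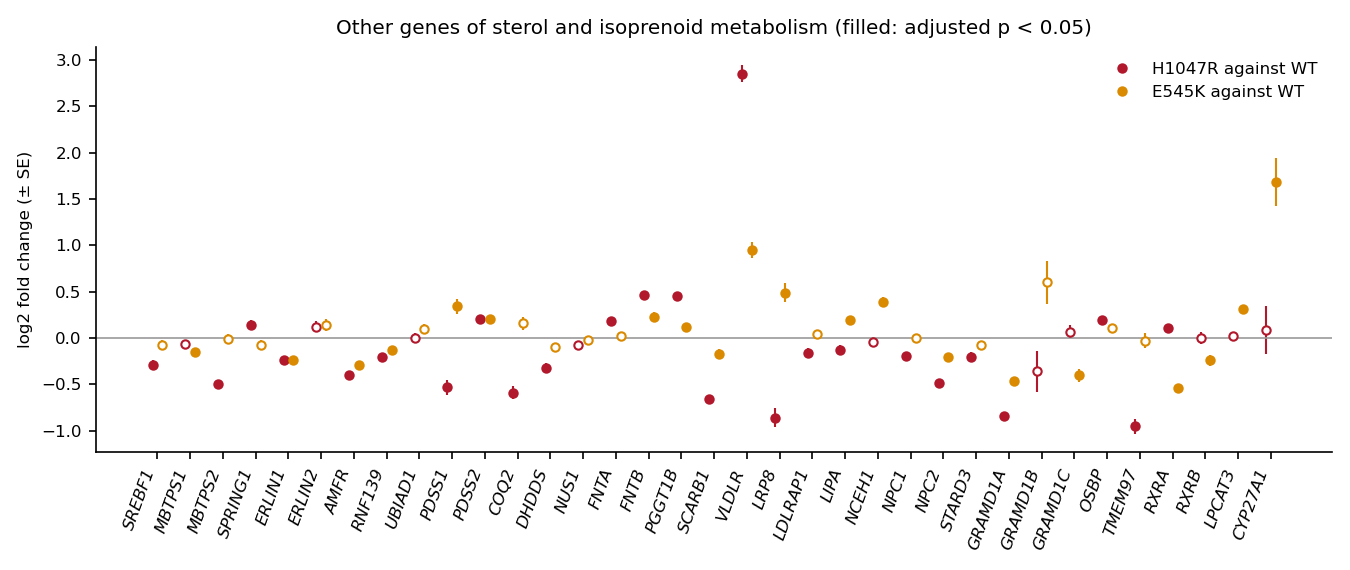
Log2 fold changes with approximate SE of the 35 tested other genes of sterol and isoprenoid metabolism in H1047R against WT and E545K against WT; filled points passed the adjusted p of 0.05. VLDLR reaches 2.85 in H1047R and CYP27A1 1.68 in E545K.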

How the data were processed

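The authors deposited gene counts in 2 tables. In the table of WT and E545K the columns are headed parental and mutant. They were read as WT and E545K because the labels tie only those groups to that table. They come from featureCounts 2.0.0, per the file headers, run over exons of the GENCODE 32 annotation of hg38, without strand, with each mate counted by itself and with reads that overlap several genes counted for each of them. The headers show no option that counts multi-mapped reads, so reads shared equally with pseudogene copies (FDPS, IDI1 and HSD17B7 have such copies) may be missing. STAR, SAMtools 1.5, FastQC, cutadapt and Trim Galore 0.4.0 stand in the submitters' processing notes. Libraries were made after ribosomal RNA depletion and sequenced as paired reads, per the labels' protocols.

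Symbols came from GENCODE 44 by gene ID without version (60340 of 60609 matched). All count columns were used. Differences were tested on the deposited counts with edgeR 4.0.16 (R 4.3.3), using filterByExpr, TMM scaling and a quasi-likelihood fit of the 3 genotypes together (9 libraries), with Benjamini-Hochberg adjustment over 26412 genes and a call at an adjusted p under 0.05. SE values are approximate, from the fold change and the square root of F. The pooled coefficient of variation of 0.118 lies above those within E545K and WT and below that within H1047R, so the shared spread overstates that of E545K and WT and understates that of H1047R. A floor of 3 counts covers counting error only. Promoter windows are from RefSeq, and exon sharing was computed from the exon positions in the tables. Protein sequences were not used here.

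The members and lists were chosen with earlier results of these data known. All 31 genes are named, with values per library for more of them than the rule (1.5-fold calls and SREBP regulators) required. Of the other 37, up to the 3 largest called rises and falls per comparison are named, and SREBF1, COQ2, PDSS1, CH25H and CYP7B1 were added after their values were seen. Alternatives were other scalings, low-count filters, a replicate block, only the compared groups, protein-coding genes only, DESeq2 1.42.0 and leaving out each library.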

Additional observations from a re-analysis of the deposited data

How the results depend on the processing

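In H1047R against WT, all 27 calls among the 31 genes held under each of the 18 alternatives, with HMGCS1 between −3.21 and −2.86 and ABCG1 between 2.08 and 2.21. In H1047R against E545K, 25 of 27 calls held, the exceptions being GGPS1 and NR1H2. NR1H2 stood at 0.00 (adjusted p = 0.936) with library totals only. GGPS1 lost its call under 11 alternatives. Besides the left-out libraries named above, these were upper-quartile scaling (adjusted p = 0.0614), no low-count filter (0.135), protein-coding genes only (0.105) and only the compared groups (0.0801). In E545K against WT, 12 of 18 calls held, and 9 further genes were called under some alternative. Its lower calls numbered 13, and 20 with only the compared groups in the fit, with 23687 genes tested. Over all genes, 9663 of 26412 (36.6%) were called in the fit of all 9 libraries. More than 9663 were called with only the compared groups, of fewer genes tested, so the share over all genes was also above 36.6%. Of those calls over all genes, 48.9% were higher. The added calls are thus not read as particular to these genes. The cause was not tested. Leaving out 1 library gave 11 to 20 lower and 3 to 6 higher calls. Over all genes, fewer than 9663 were then called without any single WT or E545K library or without H1047R replicate 2. More than 9663 were called without H1047R replicate 1 or 3. INSIG1 was not called there with DESeq2 (adjusted p = 0.142) or library totals only (0.0798), nor CYP51A1 with DESeq2 (0.0622) or NR1H2 with library totals only (−0.07, adjusted p = 0.0947).

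Same-numbered libraries showed no shared deviation over all genes (correlations −0.035 to 0.023). Libraries with different numbers had correlations of −0.025 to 0.042. Correlations over all genes cannot exclude a batch shared by number that acts on some genes. With the replicate block, 14 genes were lower and 5 higher in E545K against WT, 25 and 2 in H1047R against WT, and 24 and 3 in H1047R against E545K. Over all genes, calls in E545K against WT were fewer with the block than the 9663 without it. The same 26412 genes were tested, so the share called was below 36.6%. Of the calls over all genes with the block, 48.2% were higher in E545K against WT. In H1047R this share was 49% against WT and 48.5% against E545K. ABCA1, with as few as 22 counts in a library, had the lowest count of the 31 genes.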
